A study of Clarias macrocephalus with 14 samples.

Results

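Between 3 and 5 days post fertilization (dpf), fry of Clarias macrocephalus, the broadhead catfish, were compared as whole bodies over 23783 numbered Gene IDs, of 25238 Gene IDs in the deposited table. The members were the all-digit Gene IDs. Their 166841 assembled transcripts, 1 per line of the table, were summed per Gene ID after 7641 transcripts had been left out. Left out was any transcript with 20 or more counts over the 2 libraries of 5 dpf and under 3 at every one of the remaining 6 ages. The choice thus used the counts themselves, and nearly all counts it removed were from 5 dpf. Left-out transcripts belonged to 4359 Gene IDs, and 54 Gene IDs consisted of nothing else and dropped out. Of the 23783 that stayed, 4933 rested on 1 transcript and a single Gene ID on as many as 1912.

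Each age was represented by 2 libraries of ribosome-depleted total RNA from whole bodies of unknown sex, in a series of 14 libraries at 3, 5, 13, 14, 16, 17 and 24 dpf. The labels name no strain, no treatment and no genotype, and do not say whether a library held 1 fry or a pool, or whether the 2 libraries of an age came from separate spawns. The p-values therefore measure the spread between these libraries alone, which may be technical. The table gives numbers and no gene names, and nothing used here pairs the numbers with names, so no pathway, tissue or cell type is named and no marker gene could be checked.

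The first days of a catfish are a change of diet as well as of shape. Newly hatched larvae live on yolk, then the mouth opens, the gut and its glands begin to work and the fry take their first prey, while muscle, eyes, barbels and gills mature. The air-breathing organ of Clarias, built from tissue of the gill arches, is formed later than these first steps, and genes of the air-breathing function are the subject of the study. In RNA from a whole animal, a change in a Gene ID can come from more cells of a type or from more RNA per cell, and these cannot be told apart.

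After summing, the 3 dpf libraries held 2375176 and 2381604 counts and the 5 dpf libraries 5077456 and 4058752. Trimmed-mean (TMM) scaling factors were close, 1.31 and 1.22 on day 3 against 1.35 and 1.32 on day 5. Levels are given as CPM, the count scaled by the TMM-adjusted library total, and day 3 stands for 3 dpf. Pearson's r of log2 CPM across Gene IDs, which are not independent, was 0.967 between the 2 libraries of 3 dpf and 0.981 between those of 5 dpf, against 0.852 to 0.883 between the ages. The median Gene ID differed by 0.25 on the log2 scale between the libraries of 3 dpf and by 0.18 between those of 5 dpf. Between the ages the median size of the difference was 0.51.

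Under TMM scaling many Gene IDs changed in these 2 days, in nearly even numbers up and down, but the large changes were mostly upward. Of 18473 Gene IDs with enough counts to be tested, 7499 (40.6%) differed between 5 and 3 dpf (edgeR quasi-likelihood, Benjamini-Hochberg adjusted p under 0.05). Of these, 3955 were higher on day 5 (21.4% of those tested) and 3544 lower (19.2%). TMM scaling centres most Gene IDs near no change, which favours an even split. Scaled by library totals alone, 4273 were higher and 2838 lower. The other 5310 of the 23783 members had too few counts for the test. The fitted log2 fold change had a median of 1.11 among the higher and -0.88 among the lower Gene IDs, against 0.04 over all tested. The filter drew on the counts of all 14 libraries, so the tested Gene IDs include some with no count at either age. With the 4 libraries of 3 and 5 dpf alone, 8111 of 17042 changed.

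Changes under 2-fold made up 2165 of the 3544 falls and 1683 of the 3955 rises. At the other end, 716 Gene IDs rose 4-fold or more in the fit (3.88% of those tested) and 190 fell as far (1.03%), so strong rises outnumbered strong falls even though the totals were alike. At least 16-fold there were 155 higher and 14 lower. Among the 716, 189 had fewer than 3 counts over both 3 dpf libraries, so that their fitted fold has no measured lower level. With these set to their bound, against a floor of 3 counts over the 2 libraries, 663 Gene IDs rose 4-fold or more and 67 rose 16-fold or more, against 190 and 9 that fell as far. Among Gene IDs with 3 or more counts at both ages, 527 rose and 177 fell at least 4-fold.

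**Figure D1:**
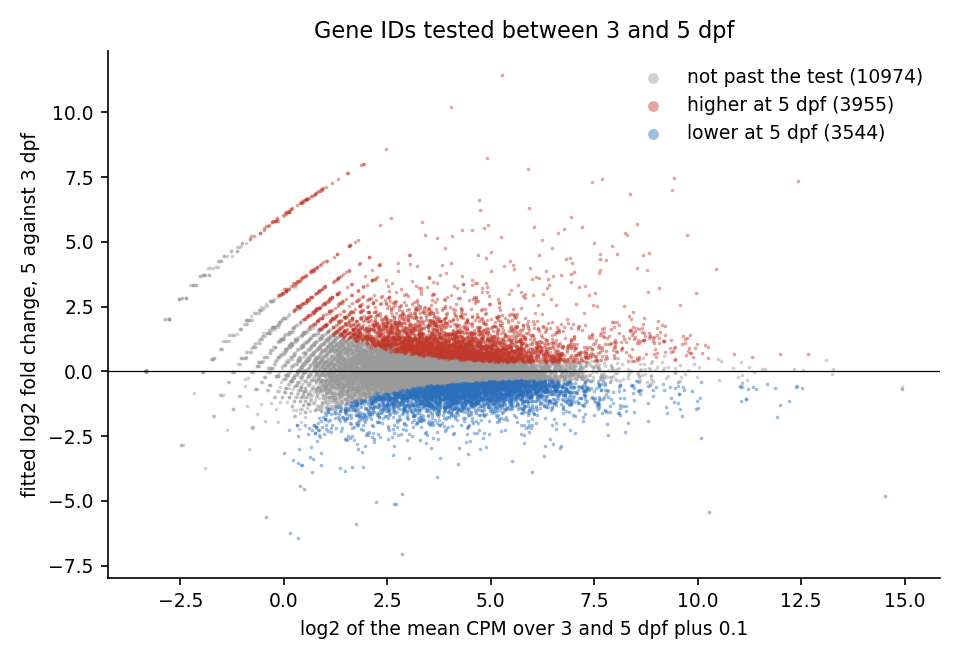
Each point is 1 of the 18473 tested Gene IDs. The x axis gives the log2 of its mean CPM at 3 and 5 dpf plus 0.1, and the y axis the fitted log2 fold change of 5 against 3 dpf. Red points passed the test as higher (3955), blue as lower (3544) and grey points did not pass it. The points above 0 reach farther from it than those below, and the streaks at low levels are Gene IDs with 0 or few counts on day 3.

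The 2 libraries of an age rarely overlapped with those of the other age among the changed Gene IDs. Both 5 dpf libraries lay above both 3 dpf libraries in 3954 of the 3955 higher Gene IDs, and below them in 3538 of the 3544 lower ones. Such separation was common over all tested Gene IDs too, at 38% above and 34.2% below, so it is not by itself a sign of change with 2 libraries a group.

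Leaving out a library lowered the calls. The number of changed Gene IDs was 4986 without replicate 2 of 3 dpf, with 2273 of them lower against 3544 with all libraries, and 5545 to 5823 without each of the other 3 libraries in turn. Summed per Gene ID without leaving out any transcript, 8421 of 18644 changed, 4609 higher and 3812 lower.

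The Gene ID with the largest fitted rise among those measurable at both ages was 108255198. It had 7.73 and 7.94 CPM on day 3 (24 and 23 counts) and 1282 and 1477 CPM on day 5 (8749 and 7885 counts). The libraries of the 2 ages were far apart and each pair close together. Mean levels were 7.84 ± 0.152 and 1380 ± 138 CPM (SD, n = 2), and the fitted log2 fold change was 7.46 with a standard error of 0.32 (edgeR, adjusted p = 4.54e-14).

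The level of 108255198 did not settle after 5 dpf. It was highest on day 13, at 7287 and 3694 CPM, fell back to 194 and 200 on day 14 and stood at 1312 and 1337 on day 16. It was at 119 and 102 CPM on day 17 and 534 and 522 on day 24, above both 3 dpf libraries in each of the 10 later libraries. Nearly all of its counts lay on a single transcript, TRINITY_DN145518_c0_g1_i14, with 8744 and 7877 counts on day 5. Another 7 transcripts under the same Gene ID were among those left out for being seen on day 5 alone.

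Gene ID 108273473 had the largest gain in CPM. It had 88.2 and 42.8 CPM on day 3 and 9777 and 11938 on day 5, where it held 1.31% and 1.57% of the summed counts. Mean levels were 65.5 ± 32.1 and 10858 ± 1528 CPM (SD, n = 2), a fitted log2 fold change of 7.37 with a standard error of 0.29 (edgeR, adjusted p = 1.56e-14). At the 5 later ages its libraries had 5.14 to 20.4 CPM. The 5 dpf libraries stood apart from the other 12.

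This rise rested on 1 transcript, high in the 5 dpf libraries and low elsewhere. TRINITY_DN141918_c1_g1_i6 had 66661 and 63697 counts on day 5, 233 and 88 on day 3 and 6 to 17 in each later library. It was therefore well over the limit of 3 counts at every other age and stayed in. The remaining transcripts of the Gene ID together had 59 and 33 counts on day 5 against 41 and 36 on day 3. A setting added after seeing the data also left out transcripts with under 2% of their 5 dpf counts at each other age. It took out the leading transcript by the same counts that made the rise, so the loss of the rise was fixed in advance. On the remaining transcripts the log2 fold change of 108273473 was -0.76 (edgeR, adjusted p = 0.0212). This value describes those transcripts and is no test of the rise. The files do not show from which organism in a whole-body sample a transcript came, and this was not tested for 108273473 or for the left-out transcripts.

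The same setting hardly moved the totals, with 3922 higher and 3529 lower, and left out 199 further transcripts. Of the higher Gene IDs, 29 had a mean on day 5 at least 8-fold above that of every other age, and 12 of the 29 had held left-out transcripts, as had 1154 of the 3955 higher and 4120 of the 18473 tested Gene IDs. Among tested Gene IDs that had held left-out transcripts, 28% were higher and 19.7% lower, beside 19.5% and 19% of those that had not. Their median level on day 3 was also higher, at 24 CPM beside 9.72. The cause was not tested. The 29 Gene IDs took 1.54% and 1.86% of the summed counts on day 5, of which 108273473 made up 85.3% and 84.6%. No lower Gene ID stood 8-fold above every other age on day 3. At 4-fold there were 50 Gene IDs on day 5 and 5 on day 3.

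Counts of these transcripts on day 3 differed between its libraries. For the 29 Gene IDs replicate 1 of 3 dpf had 481 counts and replicate 2 had 276, a ratio of 1.74. Without 108273473 the other 28 had 207 and 152, a ratio of 1.36. The left-out transcripts had 942 and 347 counts there, a ratio of 2.71, while the library totals were nearly equal. The leading transcript of 108273473 had a ratio of 2.65. What put these counts into the 3 dpf libraries was not tested.

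The limits of the rule cut through a continuous range. With fewer than 3 counts at each other age, 1121 transcripts had 20 to under 25 counts on day 5 and were left out, with a median of 22. A further 1570 had 15 to under 20 and were kept, with a median of 17. With 20 or more counts on day 5, 245 transcripts had 2 to under 3 counts at their highest other age and were left out, with a median of 194 counts on day 5. In contrast, 169 had 3 to under 6 counts there and were kept, with a median of 382 counts on day 5.

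**Figure D2:**
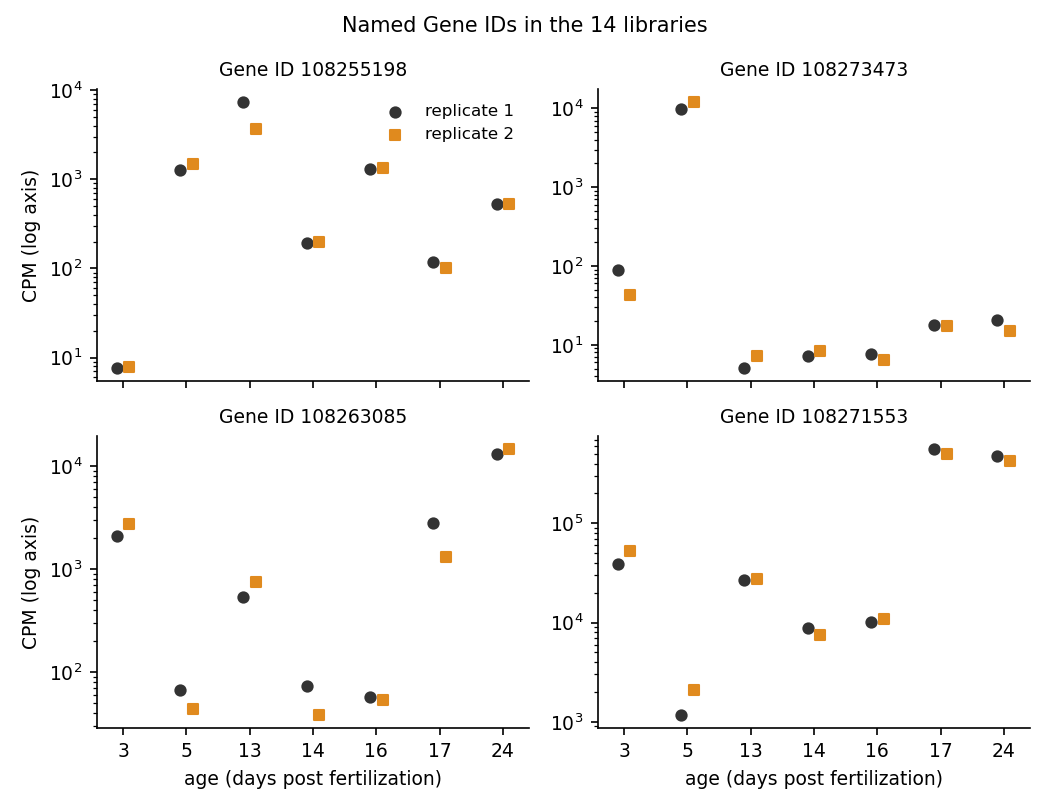
CPM of the 4 named Gene IDs in each library, on a log axis, against age. Circles are replicate 1 and squares replicate 2. The upper pair rose from 3 to 5 dpf and the lower pair fell. 108273473 is high in the 5 dpf libraries only, whereas the 5 dpf level of the others is met or passed again at later ages or, for 108271553, is the lowest of the series.

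The Gene ID with the largest fitted fall among those measurable at both ages was 108263085. It had 2103 and 2773 CPM on day 3 and 67.1 and 44.2 on day 5, with no overlap. Means were 2438 ± 474 and 55.7 ± 16.2 CPM (SD, n = 2), and the log2 fold change was -5.45 with a standard error of 0.35 (edgeR, adjusted p = 7.37e-11).

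The later levels of 108263085 went up and down. It had 544 and 761 CPM on day 13, then 73.7 and 39 on day 14 and 57.4 and 54.4 on day 16, like the 5 dpf libraries. It then stood at 2814 and 1318 CPM on day 17 and at 12981 and 14581 on day 24, where both libraries exceeded the 3 dpf ones. A single transcript, TRINITY_DN138629_c6_g1_i11, carried 6528 and 8030 of its counts on day 3 and 450 and 226 on day 5.

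The largest loss in CPM was in Gene ID 108271553, which held the largest share of counts of any Gene ID on day 3. This share is not corrected for transcript length. It had 5.11% and 6.38% of the summed counts on day 3 and 0.159% and 0.272% on day 5. In CPM these were 39110 and 52497 on day 3 and 1183 and 2069 on day 5, with means of 45804 ± 9466 and 1626 ± 627 (SD, n = 2). The log2 fold change was -4.82 with a standard error of 0.345 (edgeR, adjusted p = 4.15e-10).

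The 5 dpf libraries had the lowest levels of 108271553 in the series. On day 13 it was back at 26869 and 27722 CPM, on day 14 at 8875 and 7487 and on day 16 at 10150 and 10869. On day 17 it reached 30.7% and 32.9% of the summed counts and on day 24 18.7% and 21.4%, the highest share of any Gene ID in those 4 libraries. Of its 11 transcripts, TRINITY_DN134023_c5_g1_i6 had 121236 and 151827 counts on day 3 and 7798 and 10843 on day 5. The remaining transcripts together had 220 and 177 counts on day 3 and 273 and 203 on day 5.

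Among the kept transcripts, counts on day 5 were spread over more Gene IDs. The rule had taken out 7.14% and 9.07% of the counts of the 5 dpf libraries. At 3 dpf it had taken out 0.0394% and 0.0145%. How the spread compares with no transcript left out was not tested. The 10 highest Gene IDs of each library held 21.3% and 22.8% of the summed counts on day 3 and 15% and 15.4% on day 5. Gene ID 108271553 alone made up 5.11 and 6.38 of these percentage points on day 3. It held 0.159% and 0.272% of the counts on day 5. How the ages compare without this Gene ID was not tested. To reach 50% of the counts took 371 and 277 Gene IDs on day 3 and 484 and 440 on day 5. The number seen at an equal depth of 2375176 counts was estimated (2 libraries a group, not tested). It was 19551 and 19473 Gene IDs on day 3 and 20449 and 20444 on day 5. This depth was that of replicate 1 of 3 dpf, where 20083 Gene IDs had at least 1 count. The estimate thus misses some Gene IDs with low counts, and by how much may differ between the ages. What part of the gap between the ages comes from this was not tested. The rule on left-out transcripts had kept 1570 with 15 to under 20 counts on day 5 and under 3 at every other age. Such transcripts can add to the Gene IDs seen on day 5. How many Gene IDs were seen through them alone was not tested. The called groups carried a large part of the libraries. The 3955 higher Gene IDs took 15.2% and 14.1% of the counts on day 3 and 34.4% and 36.2% on day 5. The 3544 lower ones took 43.3% and 45.7%, then 23.2% and 22.5%. In the lower group 108271553 alone held 5.11 and 6.38 percentage points on day 3. The direction of both shifts follows from the choice of these Gene IDs.

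Appearance was far more common than disappearance. Fewer than 3 counts over the 3 dpf libraries and at least 20 over those of 5 dpf were found in 227 Gene IDs, of which 83 had no count on day 3. The reverse was found in 3. The 5 dpf libraries were the deeper ones, and depth favours appearance. With 50 or more counts required, the numbers were 36 and 1. Of the 227, 171 passed the filter on low counts, and their median over all 227 was 30 counts on day 5. The rule had kept 1570 transcripts with 15 to under 20 counts on day 5 and under 3 at every other age. How many of the 227 rest on such transcripts was not counted.

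The appearing Gene IDs were rarely seen at the last ages. With 20 counts or more taken as presence, there were 64 of the 227 on day 13, 115 on day 14, 143 on day 16, 13 on day 17 and 0 on day 24, while 66 were present at no later age. This limit was not scaled to depth, and depth rose in the same order from 13 to 16 dpf. Summed counts were 3625090 and 2762558 on day 13, 4757118 and 5251819 on day 14 and 6378980 and 8806287 on day 16. What part of the rise comes from depth was not tested. The 24 dpf libraries were the shallowest, with 1885883 and 1438328 summed counts. Those of 17 dpf, with 3380884 and 2920417, were deeper than those of 3 dpf. A few Gene IDs held much of the counts at 17 and 24 dpf, where 7 to 11 of them took 50%, so depth for the rest was lower.

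Low and high levels behaved differently. Gene IDs were divided into 5 classes of equal size by their mean log2 CPM over both ages. In the lowest class 17.5% were higher and 6.82% lower on day 5, and in the highest class 26.4% were higher and 32.4% lower. The median log2 fold change went from 0.31 in the lowest class to -0.08 in the highest. The test has less power at low levels, and the 3 dpf libraries were the shallower ones. What part of this gradient comes from depth was not tested.

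Gene IDs with many transcripts fell more often. Among those with 1 transcript, 17.9% were higher and 13.7% lower, and among those with 10 to 49 transcripts 24.6% and 23.9%. Of the 157 tested Gene IDs with 50 or more transcripts, 11 (7.01%) were higher and 82 (52.2%) lower, with a median log2 fold change of -0.43, against 21.4% and 19.2% over all tested. The fit placed 122 of the 157 (77.7%) below 0, where 48.1% of all tested were. These 157 held 15.4% and 15.5% of the summed counts on day 3 and 10.8% and 10.7% on day 5. Removal of transcripts seen on day 5 alone touched 60 of them. With no transcript left out, 19 of 165 such Gene IDs were higher and 87 lower, so falls outnumbered rises with and without the rule. Their median level was also above that of the other classes, at 107 CPM on day 3, and falls were more frequent at high levels.

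**Figure D3:**
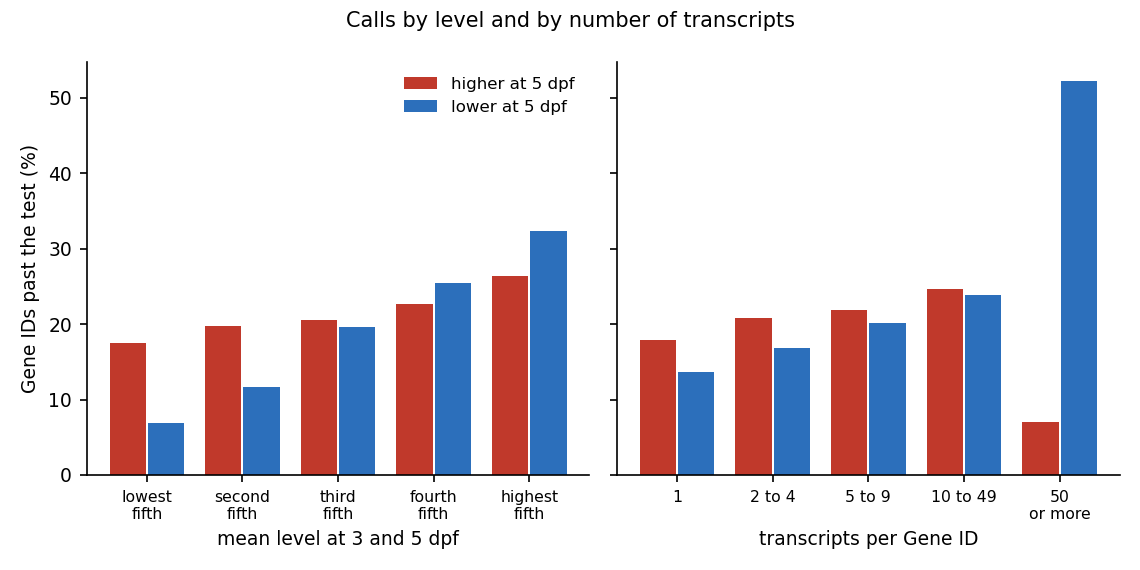
Percent of tested Gene IDs past the test as higher (red) or lower (blue) on day 5, by 5 classes of the mean level at 3 and 5 dpf on the left and by number of transcripts summed under a Gene ID on the right. Falls gain on rises with level, and in the class of 50 or more transcripts 52.2% were lower and 7.01% higher.

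Transcripts were also tested one by one. In that test 10622 of 37866 kept transcripts changed (28.1%), 5998 higher (15.8%) and 4624 lower (12.2%). Of the higher Gene IDs, 3645 of 3955 held a transcript that was itself higher, and 2395 of 3544 lower Gene IDs one that was lower. The other falls had no single transcript that passed as lower, and 17940 of the 18473 Gene IDs had a tested transcript. The transcript test was scaled on its own. Its log2 fold changes for leading transcripts lay above those of the sums in 108255198 (7.63 against 7.46), 108263085 (-5.31 against -5.45) and 108271553 (-4.67 against -4.82). What part of the difference between rises and falls comes from scaling was not tested. Among 10974 Gene IDs whose sum did not pass the test, 1320 held a changed transcript.

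Opposite changes within a Gene ID were found in 302 of the 7742 with 2 or more tested transcripts (3.9%). The sum was called higher in 96 of them (31.8%), lower in 59 (19.5%) and neither in 147. Of all 7742, 21.3% were called higher and 27.7% lower. In 181 both transcripts changed at least 2-fold and in 80 at least 4-fold. In a de novo assembly a Gene ID can cover near-identical copies or fragments of a gene, between which the count estimate can shift reads, so these values are of assembled transcripts and not of known isoforms.

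The transcript with the most counts also changed in some Gene IDs. Of 10582 Gene IDs with 2 or more transcripts and at least 50 counts at each age, 9409 had a leading transcript on which the libraries within each age matched. In 401 of these (4.26%) the leading transcript on day 5 was another one than on day 3. Their sums were called higher in 83 (20.7%) and lower in 149 (37.2%), beside 20.6% and 26.8% of the 9409. Libraries of a single age named different leading transcripts in 771 of the 10582 on day 3 and 590 on day 5. These lie outside the 9409 by definition, so their numbers cannot be set directly against the 401.

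Levels at the later ages were set beside those of 3 and 5 dpf. The libraries of the later ages did not enter the contrast itself. They did enter the low-count filter, the scaling, the shared estimate of spread and the rule on left-out transcripts. For each changed Gene ID, the mean log2 CPM at a later age was compared with the midpoint between the first ages. It was placed on the 3 dpf or the 5 dpf side of that midpoint. The midpoint comes from the 3 and 5 dpf values by which the Gene IDs were called. A place on the 5 dpf side therefore does not by itself show a lasting change. Of the 3955 higher Gene IDs, 48.5% lay on the 5 dpf side on day 13, 59.9% on day 14, 63.7% on day 16, 29.6% on day 17 and 21.8% on day 24. Of the 3544 lower ones, it was 49.4%, 66.7%, 66.2%, 32.5% and 34.5%. In both groups the share was highest at 14 and 16 dpf and lower at 17 and 24 dpf. Gene IDs that did not pass the test are given beside these. Where their fitted fold change was above 0, the shares were 51%, 58%, 56.1%, 47.1% and 33.4% in the same order of ages. Where it was below 0, they were 49.5%, 51.2%, 55.4%, 40.4% and 53.1%. The levels of these Gene IDs at 3 and 5 dpf lay closer together, with median log2 differences of 0.31 and -0.26. In the called groups the medians were 1.09 and -0.85. A midpoint between closer levels separates the ages less, so the shares are not like measures. In number, the called rises were close to the uncalled ones at 13 and 14 dpf. The called falls were close on day 13 but not on day 14. Both called groups were above the uncalled ones on day 16 and below them at 17 and 24 dpf. None of these differences was tested.

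Relative to 3 dpf, the median higher Gene ID was up by 1.05 and 1.11 on the log2 scale in the 5 dpf libraries. It was at 0.5 and 0.52 on day 13, 0.81 and 0.79 on day 14, 0.83 in both libraries on day 16, -0.04 and 0.05 on day 17 and -0.19 and -0.29 on day 24. The median lower Gene ID was at -0.83 and -0.86 on day 5, -0.42 and -0.46 on day 13, -0.79 and -0.8 on day 14 and -0.68 and -0.66 on day 16. At 17 and 24 dpf its libraries were between -0.15 and 0.15. The 2 libraries of each age gave nearly the same median, with the widest gap on day 17 in the lower group. The 3 dpf baseline also entered the calls, so a later distance from it is favoured by the choice of these Gene IDs.

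**Figure D4:**
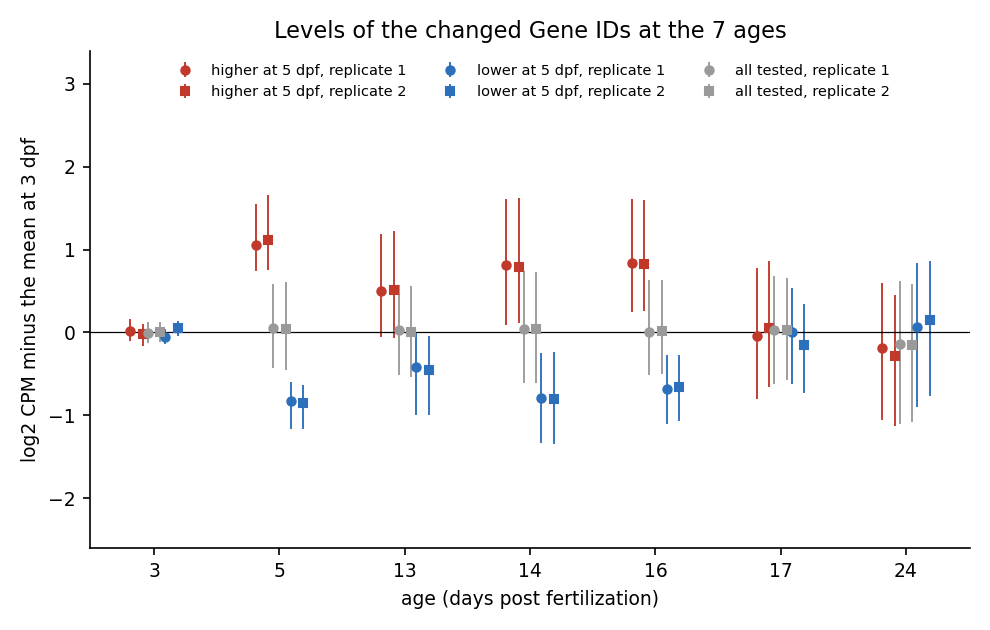
Median log2 CPM minus the mean on day 3 in each library, with bars from the lower to the upper quartile over Gene IDs. Red marks the 3955 Gene IDs higher on day 5, blue the 3544 lower ones and grey all 18473 tested. Circles are replicate 1 and squares replicate 2. The 3 and 5 dpf values follow from the choice of Gene IDs, and the bars are apart again at 14 and 16 dpf. On day 13 the medians are apart but the bars overlap, as they do at 17 and 24 dpf.

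A minority of the changed Gene IDs lay on the 5 dpf side at all 5 later ages. Among the higher Gene IDs 352 (8.9%) lay on the 5 dpf side at all 5 later ages and 758 (19.2%) at none. Of the same Gene IDs 1782 (45.1%) had their highest mean of the 7 ages on day 5, beside 17% of all tested. Among the lower ones 446 (12.6%) lay on the 5 dpf side at all 5 and 447 (12.6%) at none. How often Gene IDs that did not pass the test lay there at all or none of these ages was not counted. The lower Gene IDs had their lowest mean on day 5 in 1249 (35.2%) and on day 14 in 990 (27.9%), beside 12.9% and 15% of all tested. A peak or low on day 5 is favoured by the choice of these Gene IDs. The highest mean of a lower Gene ID was more often on day 24 (1475, 41.6%) than on day 3 (1025, 28.9%). Over all tested Gene IDs the highest mean was also more often on day 24 (19.3%) than on day 3 (11.2%), so this order is not particular to the lower ones.

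The most frequent mixed courses were alike in both directions. The first lay on the 5 dpf side at 13, 14 and 16 dpf and on the 3 dpf side at 17 and 24 dpf. It held 555 higher (14%) and 395 lower (11.1%) Gene IDs. The 3 dpf side includes levels beyond that of 3 dpf, so it does not show a return to the 3 dpf level. On the 5 dpf side at 14 and 16 dpf only were 412 higher (10.4%) and 398 lower (11.2%). These courses were not counted for Gene IDs that did not pass the test. Over all tested Gene IDs the libraries of 5 dpf had r of 0.852 to 0.883 with those of 3 dpf. It was 0.83 to 0.841 with 13 dpf, 0.846 to 0.851 with 14 dpf, 0.893 to 0.897 with 16 dpf and 0.712 to 0.738 with 17 and 24 dpf. Libraries of 3 dpf had r of 0.824 to 0.835 with 13 dpf, 0.789 to 0.804 with 14 dpf and 0.833 to 0.848 with 16 dpf. Their r with 17 and 24 dpf was 0.803 to 0.834.

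The steps between later ages share no library with the comparison of 5 and 3 dpf and were tested in the same fit. At 17 against 16 dpf, 55.1% of the Gene IDs that had risen by 5 dpf were lower and 4.55% higher, where 23.8% of all tested were lower and 23.5% higher. Of those that had fallen, 51.7% were higher and 7.48% lower. Read the other way, the early risers made up 49.6% of the 4397 Gene IDs lower on day 17, and the early fallers 42.3% of the 4334 higher. Median log2 fold changes at this step were -0.825 for the early risers, 0.59 for the early fallers and 0.01 for all tested.

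At this step the scaling matters, since TMM factors were 0.55 and 0.66 on day 17 and 1.33 and 1.32 on day 16. With upper-quartile factors 51.2% of the early risers were lower on day 17 and 58% of the early fallers higher, beside 20.9% and 27.2% of all tested. With library totals alone, 89.9% of the early risers and 68.6% of all tested were lower, and 11.1% of the early fallers were higher beside 3.86% of all tested.

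The other 3 steps showed less. At 14 against 13 dpf, 32.9% of the early risers were higher and 21.1% lower, beside 23.8% and 24.6% of all tested, and of the early fallers 17% were higher and 40.4% lower. At 16 against 14 dpf the early risers were at 21.9% higher and 17.9% lower and the early fallers at 26.2% and 15.5%, beside 18.1% and 15.9%. At 24 against 17 dpf it was 13.7% and 11.9% for the early risers and 28.2% and 12.1% for the early fallers, beside 13.7% and 12.1%. These shares are descriptions, since Gene IDs with more counts pass both tests more easily.

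**Figure D5:**
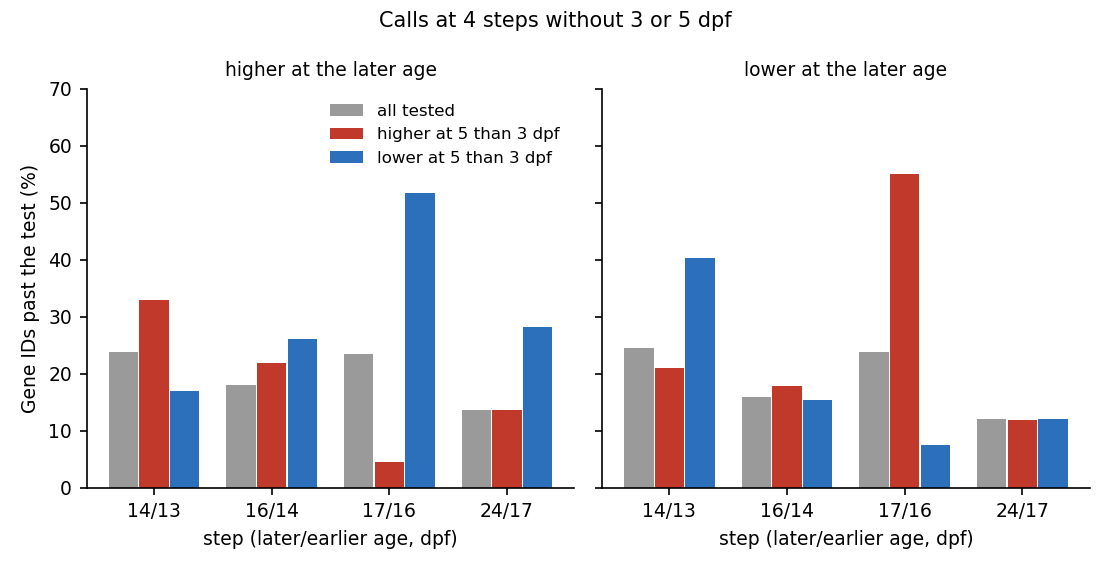
Percent of Gene IDs past the test at 4 steps that use neither 3 nor 5 dpf libraries, as higher (left) or lower (right) at the later age of the step. Grey bars are all 18473 tested Gene IDs, red bars those higher and blue bars those lower at 5 than on day 3. At 17 against 16 dpf, 55.1% of the red group were lower and 51.7% of the blue group higher, beside 23.8% and 23.5% of all.

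The 716 Gene IDs at least 4-fold higher on day 5 were mostly on the 5 dpf side up to day 16. The shares there were 57.3% on day 13, 70.3% on day 14, 72.5% on day 16, 41.3% on day 17 and 15.6% on day 24. Fitted rises that did not pass the test were at 51%, 58%, 56.1%, 47.1% and 33.4%, from closer levels. The 190 strong falls were at 52.6%, 63.2%, 66.8%, 25.8% and 35.3%. None of these differences was tested. For 189 of the 716, with fewer than 3 counts over the 3 dpf libraries, the midpoint rests on a floor. The lowest mean of the 716 was on day 24 in 338 (47.2%), beside 32.2% of all tested. They took 0.608% and 0.455% of the summed counts on day 3 and 6.32% and 7.82% on day 5, then 5.92% and 4.06% on day 13, 2.09% in both libraries of 14 dpf, 2.87% in both of 16 dpf and 0.222% to 0.357% at 17 and 24 dpf. The 190 at least 4-fold lower took 6.44% and 7.8% on day 3 and 0.374% and 0.483% on day 5, then 31.7% and 33.8% on day 17. Gene ID 108271553 alone made up 5.11 and 6.38 of these percentage points on day 3, and 30.7 and 32.9 on day 17. For both groups the direction of the shift from 3 to 5 dpf follows from the choice of Gene IDs.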

How the data were processed

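Expected counts per assembled transcript, which the authors deposited unscaled with 1 column per library, were used. Tools listed, without order or role, in the submitters' processing notes are RSEM, DESeq2, Trimmomatic 0.36, CASAVA 1.9.1 and FastQC. Not given in the sources used here were the genome build, strand use, the source of Gene IDs and the assembly's version. All-digit Gene IDs were summed as described, and held 90.1 to 99.6% of each library's counts. The 5 dpf libraries were the lowest, at 92.2% and 90.1%. Gene IDs of letters and digits held 0.351 to 1.54% and were left out.

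Rounded sums of all 14 libraries went into 1 fit with age as the only term (R 4.3.3, edgeR 4.0.16). It used TMM factors, filterByExpr with a minimum count of 10 and the quasi-likelihood F test across all Gene IDs. Benjamini-Hochberg adjustment ran over all Gene IDs tested. Standard errors are the log2 fold change over the root of F. Levels on the log2 scale used a prior count of 2. The fit was tested on simulated data. DESeq2 1.42.0 and limma 3.58.1 served as alternatives. Tested Gene IDs held 99.6 to 99.9% of the summed counts, and depth limits low levels most.

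The members, the lists and the rule for named Gene IDs were chosen with earlier results of these data known. Named, among called Gene IDs with no overlap between ages, at least 10 CPM at the higher and 10 counts at the lower age, were the largest fold and the largest CPM change in each direction (2967 eligible higher, 3073 lower). Lists of genes by symbol could not be run. Each pair of libraries differed by more than counting noise (mean chi-square 1.34 to 15.4), so no pair was taken for 1 library deposited under both numbers. This does not show that they are independent replicates.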

Additional observations from a re-analysis of the deposited data

Results flagged for a closer look

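Counts appeared in data that the comparison did not use. The transcripts left out for being seen at 5 dpf alone still had 942 counts in replicate 1 of 3 dpf and 347 in replicate 2. In each library of 13 to 24 dpf they had 16 to 39. The rule permits fewer than 3 counts per transcript and age, so some counts are left by construction. The totals of the 3 dpf libraries were nearly equal, and the cause of the difference between them was not tested.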

How the results depend on the processing

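Of 269 alternative values, 238 stayed on the same side or within their margin (1.5 times for counts, the 95% binomial interval for percentages), 30 moved and 1 reversed. Among 90 values of the 4 named Gene IDs, 89 kept direction and call. The exception was 108273473, at -0.76 (log2) with the transcripts under 2% of their 5 dpf counts at each other age also left out, because its leading transcript was then gone. That setting and the exclusion of Gene IDs that held left-out transcripts were chosen after seeing the data, as was the rescaling of the later step.

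Transcripts in place of sums gave 5998 higher. With the 4 libraries alone 8111 changed and by DESeq2 6752. Leaving out each library of 3 and 5 dpf in turn gave 4986 to 5823 changed, 2713 to 3219 higher, 2273 to 2673 lower, 596 to 764 and 170 to 239 at least 4-fold higher and lower, and 51.8 to 55.3% higher; the lone library was assumed to vary like the other ages. The share higher, 52.7%, was 54.2% with DESeq2's size factors, 60.1% with library totals alone, 56% without the low-count filter, 53.9% by DESeq2, 54.7% with no transcript left out, 51.1% without Gene IDs that held left-out transcripts and 56.5% over transcripts. The cause was not tested.

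At 17 against 16 dpf, upper-quartile factors gave 51.2% of early risers lower and 58% of early fallers higher, and library totals alone 89.9% and 11.1%. On the 5 dpf side with upper-quartile factors were 61.9%, 31.7% and 20.2% of the higher Gene IDs at 16, 17 and 24 dpf, and 69% and 29.5% of the lower ones at 16 and 17 dpf. A limit of 50 counts left 36 appearing and 1 disappearing Gene IDs, and a 2-fold limit 181 Gene IDs with opposite transcripts, as stricter limits can only lower a count.

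Correlations of the deviations of same-numbered libraries were -0.07 to 0.05 over pairs of ages, and -0.03 for 3 and 5 dpf. These values cannot show whether same-numbered libraries shared a spawn or a batch. With the replicate block 7306 changed, 3864 higher and 3442 lower, with 710 and 191 at least 4-fold and 52.9% higher.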
